A study of Mus musculus with 24 samples.

Results

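A group of 8 mouse genes of mammary progenitor cells and their ligand and receptor partners was followed through 24 RNA-seq libraries of 2 mammary tumor cell lines. The genes were 3 Sox transcription factors (Sox9, Sox10 and Sox4), the inhibitor of DNA binding Id4, the paired growth factors Ptn and Mdk, and the membrane ligand Cd200 with its receptor Cd200r1. They were taken as every row of the deposited tables whose Ensembl identifier carries one of these 8 symbols. All 8 were found, among 35275 genes listed for cultured cells, 54532 listed for tumors and 34519 listed for both.

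SOX proteins bind DNA through an HMG box. Sox9 marks mammary stem and luminal progenitor cells and is the master regulator of cartilage. Sox10 is known from the neural crest, Schwann cells and melanocytes, and is also found in mammary progenitors, and Sox4 is widely expressed in progenitors and carcinomas. Id4 is a helix-loop-helix protein without a DNA-binding region that ties up basic helix-loop-helix factors such as the E proteins, and it is a known regulator of mammary basal cells. Pleiotrophin (Ptn) and midkine (Mdk) are related heparin-binding growth factors that use the phosphatase Ptprz1, the kinase Alk, Lrp1, syndecans, integrins and nucleolin as receptors. Cd200 is an immunoglobulin-family membrane protein, found on mammary basal cells among others, and its receptor Cd200r1 is an inhibitory receptor of macrophages and other myeloid cells.

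The D2.1 and D2A1 lines both come from D2 hyperplastic alveolar nodules of female BALB/c mice, and the study used D2.1 as a dormancy-competent and D2A1 as a proliferative line. Each line was sequenced from culture in DMEM with serum (3 libraries a line), from tumors of female BALB/c mice with intact immunity (4 a line) and from tumors of female SCID-beige mice (5 a line). SCID-beige hosts carry the Prkdc scid and Lyst bg mutations, lack T and B cells and have defective NK cells, but keep macrophages and other stroma. Per the study's methods, hosts were 8 to 12 weeks old, cells went into the mammary fat pad, and each tumor was frozen and extracted on its own. The study implanted 1000000 cells a mouse and collected tumors at about 500 mm3, so size and not time was matched. In another of its experiments D2.1 tumors took longer than D2A1 tumors to reach a like size. Line and time since implantation therefore cannot be told apart in the tumors. The labels name no transgene, drug or tumor age. Each behavior is represented by 1 line, so a difference between D2.1 and D2A1 cannot be told apart from other differences between these lines. Whole tumors hold tumor cells and host cells, and in bulk RNA fewer cells of a type and less RNA per cell cannot be told apart. Nothing says that the 3 cultures of a line were grown apart, so p-values measure the spread between these libraries.

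Totals ran from 16837260 to 24818234 counts for the cultures and from 13566949 to 18355153 for the tumors, so 3 counts correspond to 0.145 to 0.185 and 0.158 to 0.204 CPM (counts scaled to a common library total after TMM normalization). These floors cover counting error only. Epithelial markers (Krt8, Krt18, Epcam, Cdh1, Krt14 and Krt5) summed to 2492 to 5086 CPM in D2.1 culture and 139 to 363 CPM in D2A1 culture, with Krt5 at 0 in both. In BALB/c tumors they summed to 369 to 552 CPM for D2.1 and 497 to 588 CPM for D2A1. In SCID-beige tumors the sums were 478 to 1199 and 442 to 848 CPM. The lines thus overlapped in both hosts, and all 6 were counted in every tumor group. A pair of libraries stood apart. D2.1 BALB/c tumor 1 held 384 CPM of milk protein transcripts (5 genes) and 37.7 CPM of skin keratinocyte transcripts (4 genes), and tumor 4 held 116.5 CPM of the latter. In the other 22 libraries these sums were at most 2.34 and 4.28 CPM. Tumor 1 also held the most skeletal muscle (323 CPM) and adipocyte (418 CPM) transcripts of its group, where the others held 30.8 to 93.5 and 18.3 to 159 CPM. D2.1 SCID-beige tumors 4 and 5 held 235 and 191 CPM of muscle transcripts, against 0.710 to 15.3 CPM in the other 3.

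RefSeq (GRCm38.p6) gave promoter windows, 250 bases before to 50 after the start, for 4 of the 8 genes: Ptn, Cd200, Id4 and Sox4. They are printed because they show both patterns. The first 2 moved together in every comparison of the lines, Id4 moved with them in culture, and Sox4 passed the test in none. Each is written 5′ to 3′ on the gene's strand, and capitals mark matches, on either strand, to 5 short motifs. The Sox-type core is spelled AACAAA and was also counted where its last letter is T. The E-box, bound by basic helix-loop-helix factors, is spelled CANNTG. The general promoter motifs searched were the CCAAT box, the GC box, which is spelled GGGCGG, and the TATA box, which is spelled TATAAA.
Ptn, chr6:36810130-36810429, minus strand: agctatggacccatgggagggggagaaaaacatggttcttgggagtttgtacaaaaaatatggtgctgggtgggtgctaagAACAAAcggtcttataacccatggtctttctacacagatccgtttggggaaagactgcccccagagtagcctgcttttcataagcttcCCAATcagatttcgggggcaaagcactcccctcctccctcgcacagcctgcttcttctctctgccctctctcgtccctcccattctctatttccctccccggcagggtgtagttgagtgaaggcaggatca
Cd200, chr16:45409004-45409303, minus strand: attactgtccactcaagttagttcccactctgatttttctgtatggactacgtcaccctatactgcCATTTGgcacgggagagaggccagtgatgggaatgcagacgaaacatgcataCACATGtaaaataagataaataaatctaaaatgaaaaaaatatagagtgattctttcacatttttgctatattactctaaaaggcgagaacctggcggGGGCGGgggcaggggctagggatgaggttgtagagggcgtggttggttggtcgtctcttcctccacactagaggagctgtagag
Id4, chr13:48260866-48261165, plus strand: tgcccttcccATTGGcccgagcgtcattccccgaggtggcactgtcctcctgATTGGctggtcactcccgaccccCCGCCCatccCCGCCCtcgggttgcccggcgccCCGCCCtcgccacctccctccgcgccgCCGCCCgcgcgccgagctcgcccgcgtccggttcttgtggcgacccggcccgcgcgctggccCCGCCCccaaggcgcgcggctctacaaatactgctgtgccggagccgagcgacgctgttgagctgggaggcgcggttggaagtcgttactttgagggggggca
Sox4, chr13:28953650-28953949, minus strand: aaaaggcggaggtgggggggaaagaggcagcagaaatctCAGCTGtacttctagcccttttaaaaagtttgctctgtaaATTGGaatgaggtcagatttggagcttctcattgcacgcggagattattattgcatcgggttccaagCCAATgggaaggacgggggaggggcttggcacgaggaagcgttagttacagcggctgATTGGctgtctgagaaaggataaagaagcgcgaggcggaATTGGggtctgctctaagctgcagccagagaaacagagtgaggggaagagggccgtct

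The Ptn window has 6 CpG dinucleotides and 52.0% GC, and holds 1 Sox-type core 169 bases before the start and 1 CCAAT box 81 bases before it. The Cd200 window has 8 CpG and 45.0% GC, with 2 E-boxes (184 and 132 bases before the start) and 1 GC box 34 bases before it. Id4 is a CpG-dense window with 39 CpG, 73.3% GC, 5 GC boxes and 2 CCAAT boxes, all on the opposite strand. The Sox4 window has 12 CpG, 4 CCAAT boxes and 1 E-box. Among 32851 promoters of this length the median was 7 CpG (quartiles 3 and 20) and 52.7% GC, and 27.7% held a Sox-type core, 72.3% an E-box, 37.4% a CCAAT box, 35.7% a GC box and 13.6% a TATA box. No motif of the 5 is found in all 4 windows, and a match is a description of letters, not a binding site.

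**Figure D1:**
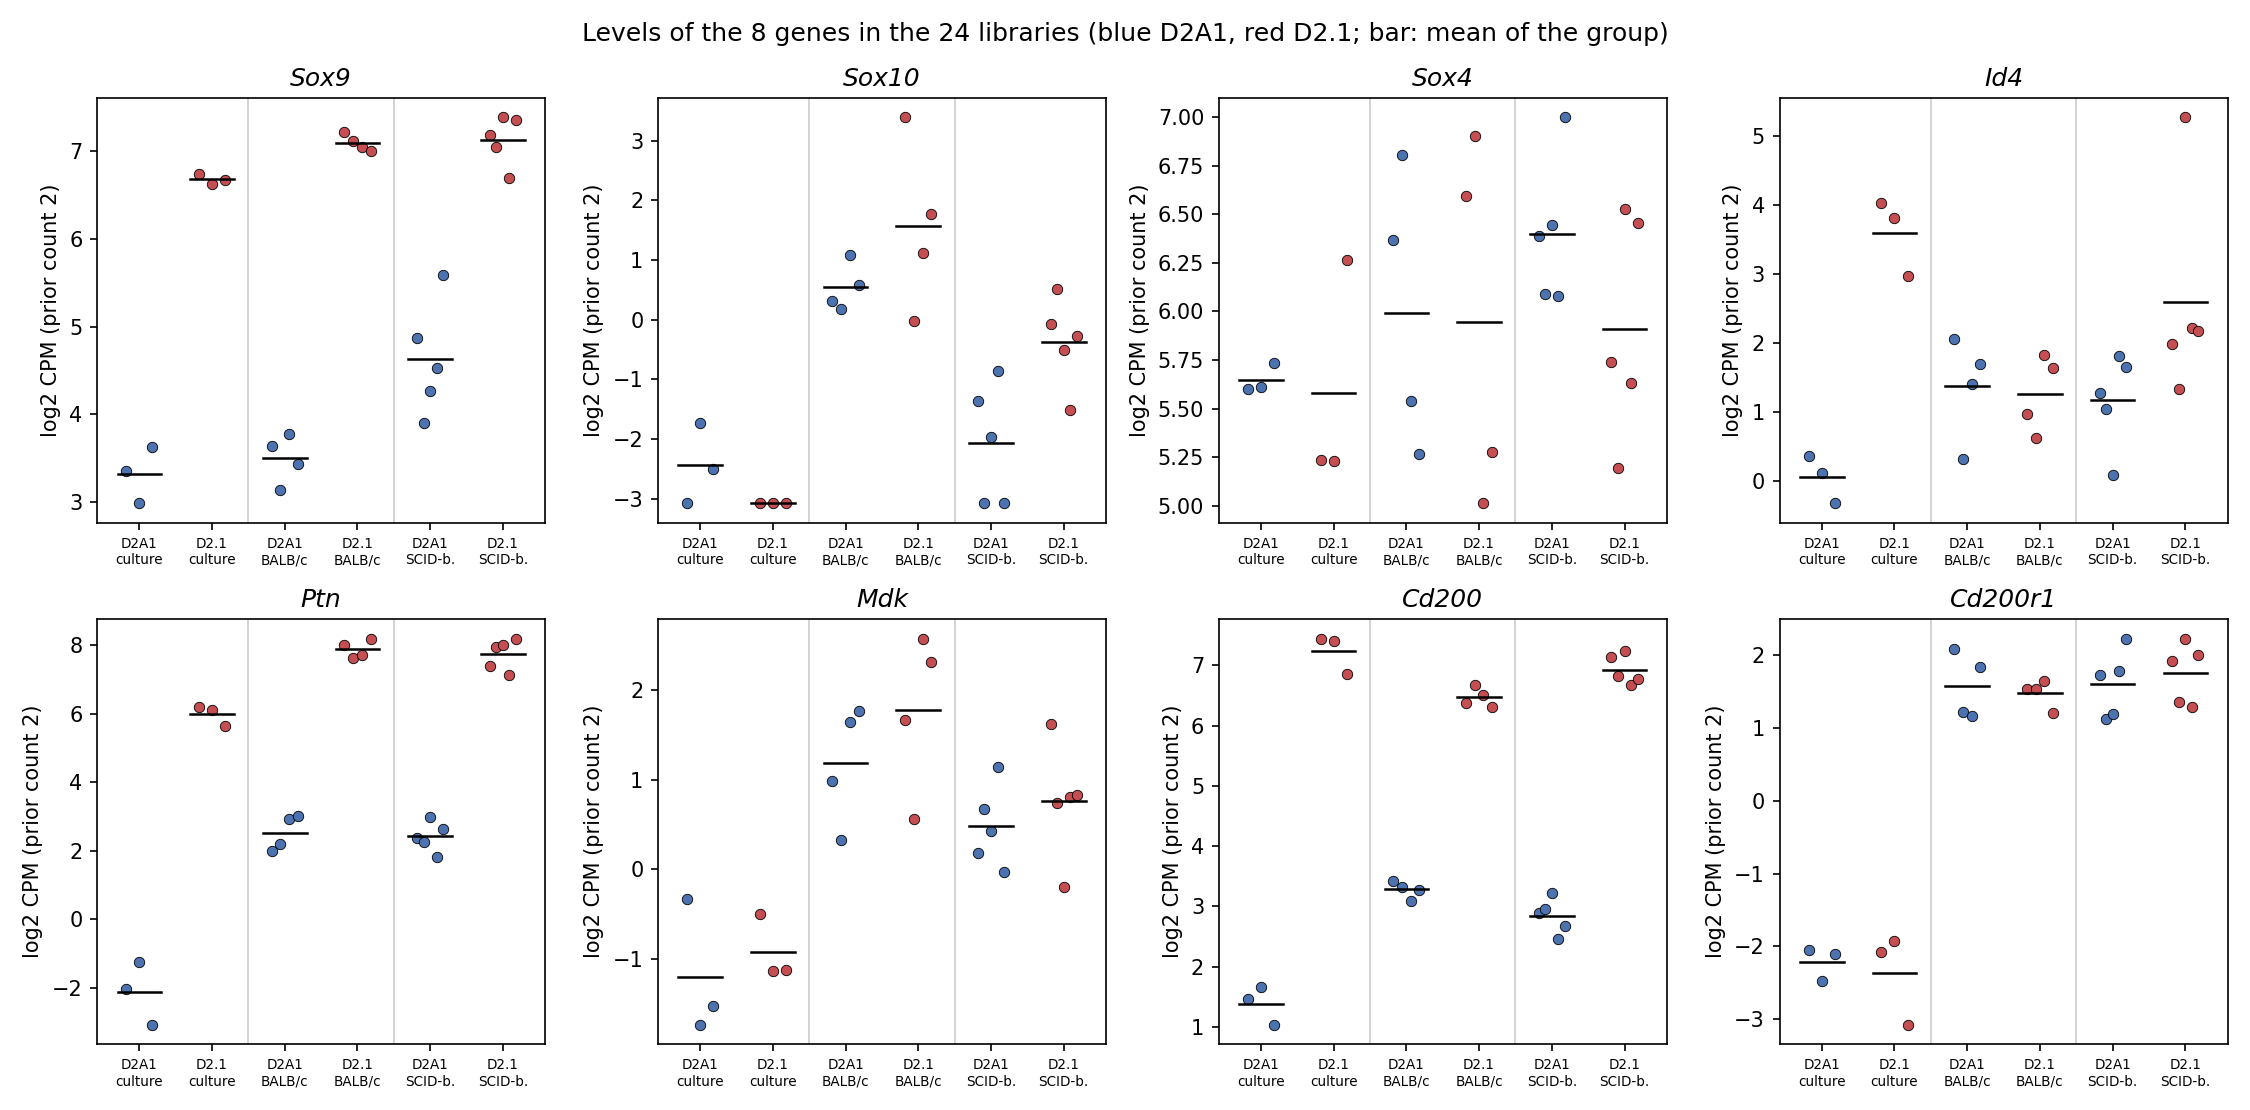
Levels of the 8 genes in every library (log2 CPM with a prior count of 2, log axis), with a panel for each gene and a column for each of the 6 groups. Points are libraries, bars are group means, red is D2.1 and blue is D2A1. Sox9, Ptn and Cd200 of D2.1 lie above D2A1 in culture and in both hosts, while Sox4 overlaps throughout and Cd200r1 separates tumors from cultures.

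D2.1 was compared with D2A1 in culture and in each host, which asks whether the progenitor genes that set the lines apart in a dish also do so in a growing tumor. Sox9, Ptn and Cd200 were higher in D2.1 in all 3 settings, by 5.29-fold to 12.02-fold for Sox9, 40.1-fold to 432-fold for Ptn and 9.12-fold to 59.8-fold for Cd200. Id4 was 13.2-fold higher in culture and did not differ in BALB/c tumors. Sox4 did not pass the test in any of the 3, and neither did Mdk and Cd200r1 in the tumors, both being too low to test in culture. In culture 4 of the 5 genes with enough counts to test were called at an adjusted p under 0.05, all higher in D2.1, against a background of 44.9% of 12489 genes (24.2% higher and 20.7% lower). In BALB/c tumors 3 of 8 were called, all higher, where 32.6% of 14953 genes were called (16.8% higher and 15.8% lower). In SCID-beige tumors 4 of 7 were called, all higher, where 32.1% of 14355 genes were called (17.2% higher and 14.8% lower). The genes' median log2 fold changes were 3.72, 1.14 and 2.19, beside -0.02, -0.02 and 0.02 over all genes tested. The study picked Sox9, Id4, Ptn and Cd200 from these same libraries, so these counts are not independent evidence of a direction. Tests here and below are edgeR quasi-likelihood tests with Benjamini-Hochberg adjustment over all genes of a comparison, and ± is the SD.

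**Figure D2:**
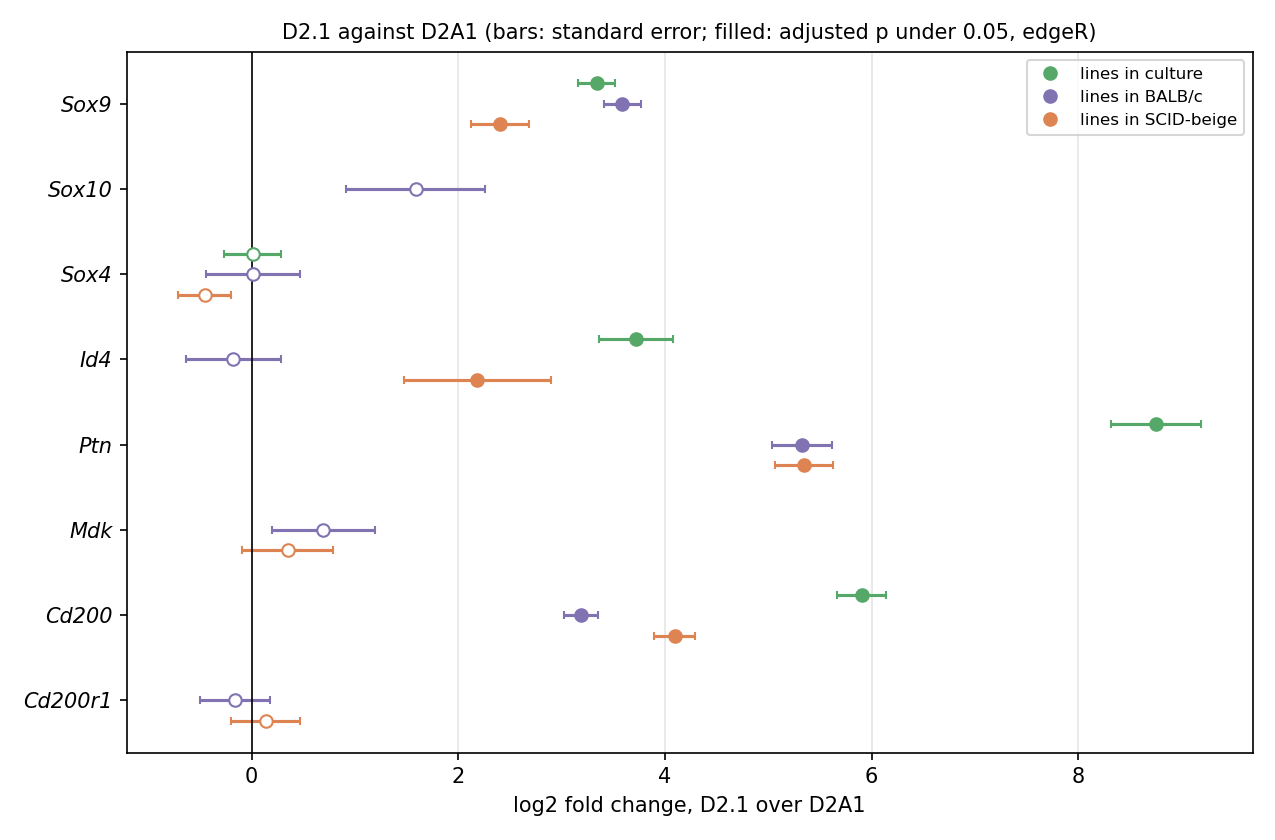
Log2 fold change of D2.1 over D2A1 for each gene in culture, in BALB/c tumors and in SCID-beige tumors, with bars of 1 standard error from edgeR. Filled points had an adjusted p under 0.05. Ptn is the most different gene in each setting (8.76, 5.33 and 5.35), and Sox4 lies at 0.01, 0.01 and -0.45 with no filled point.

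Sox9 (ENSMUSG00000000567, chr11:112782224-112787760, plus strand, GRCm38) stood at 107, 98.6 and 102 CPM in the 3 D2.1 cultures and at 10.1, 7.79 and 12.3 CPM in the 3 D2A1 cultures. In BALB/c tumors it was at 149, 139.5, 132 and 129 CPM for D2.1 and at 12.3, 8.67, 13.6 and 10.7 CPM for D2A1. In SCID-beige tumors it was at 145, 133, 168, 103 and 164.5 CPM for D2.1 and at 29.1, 14.8, 19.1, 23.0 and 48.0 CPM for D2A1. Every D2.1 library of Sox9 lay above every D2A1 library, whatever the setting. The log2 fold changes were 3.34 in culture (standard error 0.18, edgeR adjusted p = 2.6e-06), 3.59 in BALB/c (0.18, 6.8e-07) and 2.40 in SCID-beige (0.28, 2.4e-05). The 3 D2.1 groups came first in order of Sox9 level, SCID-beige and BALB/c tumors overlapping each other, and the D2A1 BALB/c tumors and cultures at the bottom overlapped as well.

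Sox10 (ENSMUSG00000033006, chr15:79154908-79165240, minus strand) was close to absent from the cultures. All 3 D2.1 cultures had 0 counts, which allows up to 0.164 CPM as a mean of their 3-count floors, and the D2A1 cultures stood at 0, 0.183 and 0.0570 CPM. BALB/c tumors held 10.4, 0.864, 2.06 and 3.30 CPM for D2.1 and 1.13, 1.02, 2.01 and 1.37 CPM for D2A1. One D2.1 tumor, number 1, was well above the rest, and the lines overlapped. SCID-beige tumors held 0.828, 1.31, 0.580, 0.232 and 0.703 CPM for D2.1 and 0.271, 0, 0.136, 0.431 and 0 CPM for D2A1. Between the lines in BALB/c tumors, the Sox10 log2 fold change was 1.59 (standard error 0.67) and did not pass (edgeR adjusted p = 0.097). It passed with DESeq2 (1.61, adjusted p = 0.047) and without D2.1 BALB/c tumor 2 (1.92, edgeR adjusted p = 0.021), and was 0.03 without tumors 1 and 4, the pair that held milk protein or keratinocyte transcripts. In SCID-beige tumors Sox10 was below the expression filter, and the log2 CPM difference of 1.70 had an exact 2-sided permutation p of 0.0238, or 0.119 adjusted over the 5 comparisons of genes below the filter. The other 4 of these 5 had exact p values of 0.4 (Sox10), 0.6 (Mdk) and 0.9 (Cd200r1) between the cultured lines, where 0.1 is the smallest that 3 against 3 libraries allow, and 0.679 for Sox10 in D2A1 tumors against culture.

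The Sox10 level of D2.1 BALB/c tumor 1 went with other transcripts of that library. It held 384 CPM of milk protein and 37.7 CPM of keratinocyte transcripts, and the other 3 tumors of the group held 0.400 to 0.748 CPM of the former. Tumor 4, with 116.5 CPM of keratinocyte transcripts, had the next highest Sox10 level, at 3.30 CPM, while tumors 2 and 3 held 0.309 and 0.286 CPM of them with Sox10 at 0.864 and 2.06 CPM. Mbp, a myelin gene of Schwann cells and a known Sox10 target, was also highest in tumor 1, at 30.8, 18.6, 16.75 and 23.1 CPM in D2.1 BALB/c tumors 1 to 4 and at 5.32 to 8.43 CPM in those of D2A1. The lines did not overlap for Mbp in this host (log2 fold change 1.70, edgeR adjusted p = 7.0e-04, and 1.33 with 0.0095 without tumors 1 and 4). In SCID-beige tumors they did, with Mbp at 7.31 to 10.6 CPM in D2.1 and 5.81 to 8.67 CPM in D2A1. Within D2A1, Mbp overlapped between the hosts, while Sox10 did not (1.02 to 2.01 CPM in BALB/c and 0 to 0.431 CPM in SCID-beige). The part of these tissues in the Sox10 level was not tested.

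**Figure D3:**
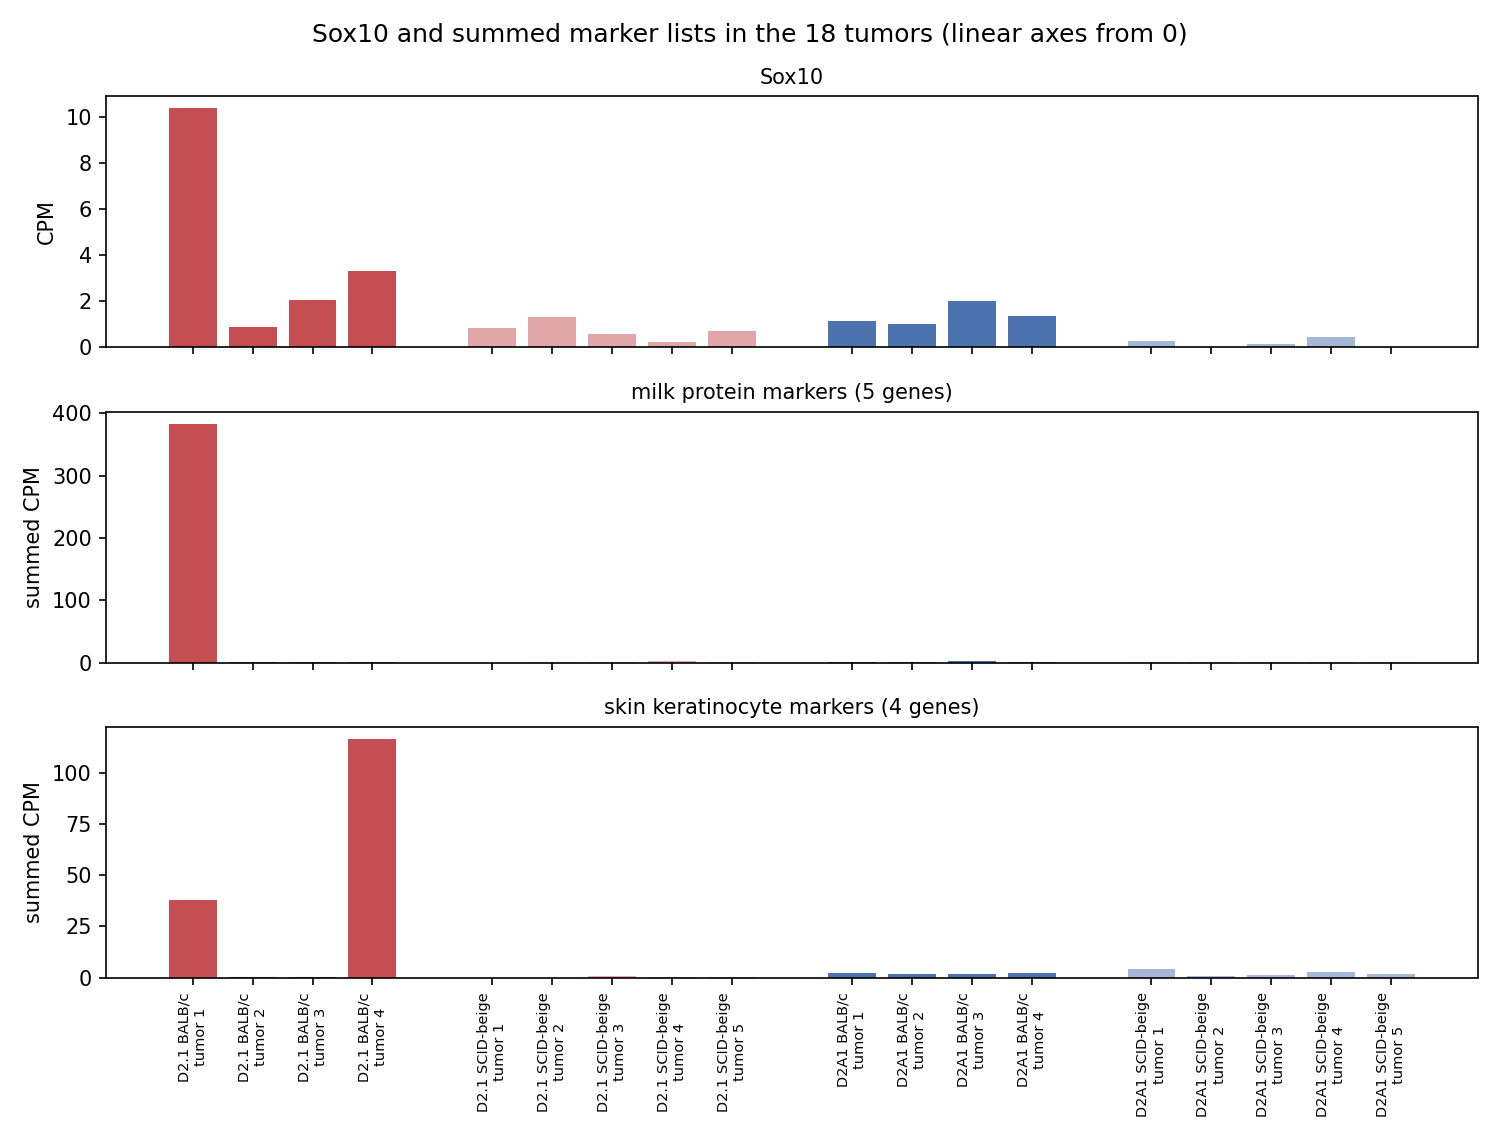
Sox10 and the summed milk protein (5 genes) and skin keratinocyte (4) markers in each of the 18 tumors, in CPM, with bars from 0 and a panel for each quantity. D2.1 BALB/c tumor 1 has the tallest bar for Sox10 (10.4 CPM) and for milk proteins (384 CPM), and tumor 4 of that group the tallest for keratinocyte markers (116.5 CPM).

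Sox4 (ENSMUSG00000076431, chr13:28948919-28953713, minus strand) did not pass the test between the lines in any setting. In SCID-beige tumors its log2 difference was -0.45 (standard error 0.26, edgeR adjusted p = 0.20). With the replicate number as a block it was -0.50 there (0.15, 0.026), lower in D2.1. Its means were 50.6 ± 22.7 and 50.1 ± 2.63 CPM in D2.1 and D2A1 cultures (n = 3 each), 71.7 ± 43.0 and 69.7 ± 33.9 CPM in BALB/c tumors (n = 4 each), and 63.8 ± 24.6 and 86.8 ± 24.6 CPM in SCID-beige tumors (n = 5 each). One D2.1 culture, number 3, held 76.9 CPM against 37.5 CPM in both others. Without it the log2 difference in culture was -0.43 (edgeR adjusted p = 0.023) in place of 0.01 (standard error 0.28, adjusted p = 0.98). Sox4 in BALB/c tumors of either line ran widely, from 32.2 to 119.6 CPM in D2.1 and from 38.3 to 112 CPM in D2A1, and the log2 difference was 0.01 with a standard error of 0.46. This spread followed the tumor number in both lines. Tumors 1 to 4 held 96.3, 119.6, 32.2 and 38.6 CPM in D2.1 and 82.4, 112, 46.4 and 38.3 CPM in D2A1. With the replicate number as a block the log2 difference was -0.06 (standard error 0.13, edgeR adjusted p = 0.75).

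Id4 (ENSMUSG00000021379, chr13:48261228-48266026, plus strand) separated the cultures and not the BALB/c tumors. It stood at 16.1, 13.9 and 7.68 CPM in D2.1 cultures and at 1.17, 0.974 and 0.684 CPM in D2A1 cultures, with no overlap and a log2 fold change of 3.72 (standard error 0.36, edgeR adjusted p = 6.3e-05). BALB/c tumors had Id4 at 1.84, 1.42, 3.43 and 2.99 CPM for D2.1 and 4.07, 1.14, 2.54 and 3.12 CPM for D2A1. These ranges coincided, and the log2 fold change was -0.18 (standard error 0.46, edgeR adjusted p = 0.81). In SCID-beige tumors D2.1 stood at 3.84, 2.40, 38.3, 4.52 and 4.41 CPM and D2A1 at 2.31, 1.94, 0.952, 3.38 and 3.01 CPM. Tumor 3 of D2.1, with 660 counts, was far above the other 4. The called log2 fold change of 2.19 (standard error 0.71, edgeR adjusted p = 0.031) rested on it and was 0.71 (adjusted p = 0.21) without that tumor. It was also past the threshold by so little that leaving out D2A1 SCID-beige tumor 1, 2 or 3 gave adjusted p values of 0.063, 0.066 and 0.070.

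Ptn (ENSMUSG00000029838, chr6:36714929-36810220, minus strand), the heparin-binding ligand, showed the widest gap. In culture it was at 73.8, 68.5 and 49.5 CPM in D2.1 and at 0.123, 0.304 and 0 CPM in D2A1, where the 3 libraries held 2, 5 and 0 counts. The pooled ratio was 460 with a 95% Clopper-Pearson interval from counting of 223 to 1144, and the fitted log2 fold change was 8.76 (standard error 0.44, edgeR adjusted p = 1.7e-06). In BALB/c tumors D2.1 stood at 257, 196.5, 209.9 and 294 CPM and D2A1 at 3.84, 4.43, 7.44 and 8.01 CPM. In SCID-beige tumors D2.1 stood at 169.9, 250.0, 259, 141 and 292 CPM and D2A1 at 5.09, 4.68, 7.82, 3.38 and 6.15 CPM. No D2A1 library reached the lowest D2.1 library of any setting. The tumor log2 fold changes were 5.33 (standard error 0.29, edgeR adjusted p = 1.2e-06) and 5.35 (0.28, 2.5e-08). The fibroblast markers Pdgfra, Dcn, Lum, Dpt and Pi16 moved the same way, with sums of 592 to 1348 CPM in D2.1 tumors and 63.7 to 158 CPM in D2A1 tumors, and of 61.3 to 80.6 and 5.11 to 11.6 CPM in the cultures, where Dcn, Lum and Dpt were at 0 in D2A1. Their part in the tumor levels of Ptn was not tested.

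Mdk (ENSMUSG00000027239, chr2:91929805-91932297, minus strand), the partner of Ptn, was low everywhere. It was at 0.339 to 0.587 CPM in D2.1 cultures and 0.183 to 0.677 CPM in D2A1 cultures, at 1.36 to 5.83 and 1.14 to 3.29 CPM in BALB/c tumors, and at 0.754 to 2.96 and 0.861 to 2.09 CPM in SCID-beige tumors. The lines overlapped in all 3 settings, with log2 fold changes of 0.70 (standard error 0.50, edgeR adjusted p = 0.32) and 0.35 (0.44, 0.58) in the tumors. Mdk was too low to test between the cultures.

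Cd200 (ENSMUSG00000022661, chr16:45382135-45409053, minus strand) stood at 174, 170.0 and 116.0 CPM in D2.1 cultures and at 2.65, 3.04 and 1.94 CPM in D2A1 cultures. In BALB/c tumors it was at 83.1, 102.5, 91.3 and 79.4 CPM for D2.1 and 10.6, 9.93, 8.45 and 9.60 CPM for D2A1. In SCID-beige tumors it was at 140.3, 113, 151, 102.5 and 109.9 CPM for D2.1 and 7.33, 7.68, 9.18, 5.35 and 6.27 CPM for D2A1. The lines did not overlap in any setting, and for D2A1 the cultures lay below all of its tumors. The log2 fold changes were 5.90 in culture (standard error 0.24, edgeR adjusted p = 7.7e-07), 3.19 in BALB/c (0.16, 6.8e-07) and 4.09 in SCID-beige (0.20, 1.6e-08). Endothelial markers (Pecam1, Cdh5, Kdr, Tek, Tie1 and Emcn, all 6 counted in tumors) summed to 60.8 to 143 CPM in D2.1 tumors and 204 to 287 CPM in D2A1 tumors, against at most 0.821 CPM in cultures, with Kdr and Emcn at 0 in D2A1 culture. They were lower in the line with more Cd200, and their part in the D2A1 tumor level was not tested.

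Cd200r1 (ENSMUSG00000022667, chr16:44765736-44794978, plus strand) followed the tumors and not the line. Its means were 2.69 ± 0.361 and 2.98 ± 0.974 CPM in BALB/c tumors of D2.1 and D2A1 (n = 4 each) and 3.39 ± 0.971 and 3.06 ± 1.01 CPM in SCID-beige tumors (n = 5 each), while the cultures held 0 to 0.145 CPM. The line differences were -0.16 (standard error 0.34, edgeR adjusted p = 0.76) and 0.13 (0.34, 0.80) on the log2 scale. Macrophage markers (Csf1r, Adgre1, Cd68, Mrc1, Cx3cr1, Fcgr1, C1qa and C1qb) followed the same split, with sums of 779.9 to 2573 CPM in tumors, where all 8 were counted, 8.92 to 11.1 CPM in D2.1 cultures and 2.85 to 3.29 CPM in D2A1 cultures, where Adgre1, C1qa and C1qb were at 0. Their part in the Cd200r1 level was not tested. The ligand thus differed between the lines by 9.12-fold in BALB/c and 17.1-fold in SCID-beige tumors, and the receptor by 1.12-fold and 1.10-fold with no call.

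Per length, on the deposited FPKM scale (counts scaled by gene length and library total), the leading gene of the 8 differed by line. In D2.1 culture Cd200 led with a mean of 57.5 FPKM, followed by Ptn at 27.9 and Sox9 at 22.1 FPKM. In D2A1 culture Sox4 led at 10.2 FPKM, with Sox9 at 2.39 and Cd200 at 1.05 FPKM. Ptn led in D2.1 BALB/c tumors (114 FPKM, Cd200 97.2 FPKM) and Cd200 in D2.1 SCID-beige tumors (134 FPKM, Ptn 105 FPKM). The tumor values of Cd200 rest on a length of 912 bases, against 2347 for cultures. Its lead over Ptn in D2.1 SCID-beige tumors depends on that length. Sox4 led in both D2A1 tumor groups, at 15.5 and 18.7 FPKM, ahead of Cd200 at 11.2 and 8.11 FPKM. Apart from Id4 and Cd200 below, FPKM of cultures and tumors were not set against each other, because the gene lengths behind them agreed within 1% for only 24.8% of shared genes.

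BALB/c and SCID-beige tumors were compared within each line, to ask whether host immunity changed these genes. No gene of the 8 passed the edgeR test at an adjusted p under 0.05 in D2.1 tumors, where 0.891% of 14929 genes did, or in D2A1 tumors, where 1.17% of 14572 did. At an unadjusted p under 0.05 there were 4 in D2.1, beside 1489 of the 14929 genes, and 2 in D2A1, beside 1472 of the 14572. DESeq2 called 1 and 2 of the 8, beside 461 and 569 of all genes. The 4 in D2.1, as log2 BALB/c over SCID-beige, were Sox10 at 2.54 (standard error 0.69, edgeR adjusted p = 0.13), Id4 at -2.07 (0.77, 0.34), Mdk at 1.17 (0.50, 0.44) and Cd200 at -0.44 (0.15, 0.28). The Id4 value was -0.63 without D2.1 SCID-beige tumor 3. DESeq2 called Sox10 there, as did edgeR without D2.1 BALB/c tumor 2 (2.88, adjusted p = 0.037), while without tumors 1 and 4 it was 0.99 (adjusted p = 0.999). The 2 in D2A1 were Sox9 at -1.24 (0.31, 0.095) and Sox10 at 2.99 (0.74, 0.087), and both were called by DESeq2. Sox9 of D2A1 was 8.67 to 13.6 CPM in BALB/c and 14.8 to 48.0 CPM in SCID-beige tumors, without overlap, while in D2.1 the hosts overlapped (log2 difference -0.02, standard error 0.15). Ptn differed by 0.15 (0.22) in D2.1 and 0.13 (0.31) in D2A1 on the log2 scale. The median over the 8 genes was 0.06 and 0.18, beside -0.01 and 0.01 over all genes.

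Whether the line difference itself changed with the host was tested as an interaction over the 18 tumors. None of the 8 genes passed (edgeR, where 0.0187% of 16036 genes did), and DESeq2 called 0, where it called 105 of all genes. An unadjusted p under 0.05 was found for 3 of the 8 and for 1355 of the 16036. The 3 were Cd200 (-0.91, standard error 0.23, adjusted p = 0.24), Sox9 (1.18, 0.35, 0.33) and Id4 (-2.35, 0.95, 0.51), as log2 of the BALB/c line ratio over the SCID-beige line ratio. A smaller Cd200 gap and a wider Sox9 gap in BALB/c than in SCID-beige were thus seen but did not pass. The Id4 value was -0.88 without D2.1 SCID-beige tumor 3. The 8 genes' median was -0.16, beside -0.06 over all genes.

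SCID-beige tumors were compared with cultures of the same line. These 2 settings come from separate tables with different gene lengths, so table and setting cannot be told apart, except that Sox9 and Sox4 had equal lengths in both. The lengths for cultures and tumors were furthest apart for Id4 (1660 and 3849 bases) and Cd200 (2347 and 912). They were 2713 and 1834 bases for Sox10, 1054 and 828 for Mdk, 2021 and 2086 for Ptn, and 1892 and 1990 for Cd200r1. In D2.1, 5 of 8 genes were called, all higher in tumors, where 53.1% of 14111 genes were called in either direction, and in D2A1, 7 of 7 were called, all higher, where 58.1% of 13869 were. The median log2 fold changes were 1.15 (also with Sox10, at 0 in D2.1 culture, at its bound) and 1.48, beside 0.09 and 0.10 over all genes.

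In D2.1, Ptn rose from 63.9 ± 12.8 CPM (n = 3) to 222 ± 63.9 CPM (n = 5), a log2 fold change of 1.81 (standard error 0.26, edgeR adjusted p = 1.8e-04). Cd200 did not pass (-0.30, 0.19, 0.20), and neither did Sox4 (0.34, 0.34, 0.41) or Id4 (-0.22, 0.80, 0.83). Without D2.1 SCID-beige tumor 3, however, Id4 was lower in tumors by a log2 value of -1.70 (adjusted p = 0.0016). Mean FPKM in D2.1 cultures and SCID-beige tumors was 57.5 and 134 for Cd200, and 6.63 and 2.77 for Id4 with tumor 3 included. The sign of the Cd200 change thus differed between CPM and FPKM, and the part of its unequal gene lengths was not tested. Sox9 was higher by 0.49 (standard error 0.17, adjusted p = 0.033), a call that was lost on the genes of equal length (0.46, adjusted p = 0.056) and without any 1 of 6 libraries (adjusted p 0.058 to 0.12), namely the 3 cultures and SCID-beige tumors 1, 3 and 5. Mdk was higher by 2.02 (0.57, 0.011), which was lost without D2.1 culture 2 (1.87, adjusted p = 0.061). Cd200r1 had 285 counts in tumors and 5 in cultures, a ratio of 37.3 (95% interval 15.8 to 116). Sox10 had 62 counts in tumors and 0 in cultures, at least 4.46-fold higher against a floor of 3 counts per library.

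In D2A1, Ptn rose from 7 counts over the 3 cultures to 415 over the 5 SCID-beige tumors, a ratio of 38.7 (95% interval 18.6 to 96.9, counting error only), and Cd200 rose from 2.54 ± 0.559 to 7.17 ± 1.45 CPM (log2 fold change 1.48, standard error 0.29, edgeR adjusted p = 0.0010). Sox9 was higher by 1.40 (0.36, 0.0058) and Sox4 by 0.78 (0.22, 0.0088). Cd200r1 had a ratio of 31.1 (13.1 to 96.6). Mdk was higher by 1.85 (0.58, 0.017), but not without culture 2 or 3 (adjusted p = 0.090 and 0.077). Id4 was higher by 1.29 (0.47, 0.034), and with the replicate number as a block it was 0.82 (adjusted p = 0.18). It was also lost without any culture or without SCID-beige tumor 4 or 5 (adjusted p 0.059 to 0.12). Mean FPKM in D2A1 cultures and SCID-beige tumors was 0.552 and 0.622 for Id4, and 1.05 and 8.11 for Cd200. How much of the Id4 call comes from its unequal gene lengths was not tested. Sox10, with 13 counts in tumors and 4 in cultures, had a ratio of 2.12 (0.656 to 8.93). Tumors of both lines also held the macrophage, fibroblast and endothelial markers given above, and what part of these rises they carry was not tested.

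**Figure D4:**
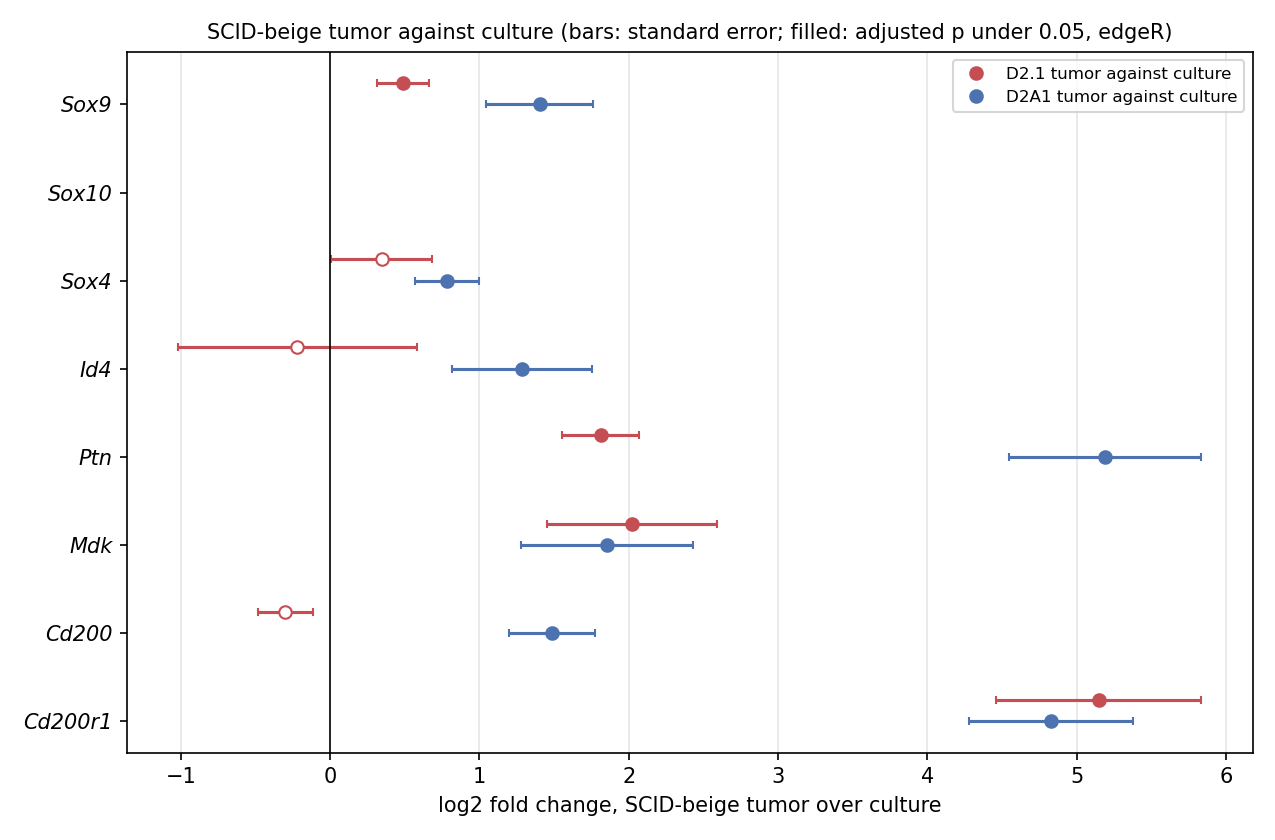
Log2 fold change of SCID-beige tumors over cultures of the same line for each gene, with bars of 1 standard error from edgeR, D2.1 in red and D2A1 in blue. Sox10 is left out because the D2.1 cultures had 0 counts. D2A1 lies above D2.1 for Ptn (5.19 against 1.81) and Cd200 (1.48 against -0.30), and the error bars of the lines overlap for Sox4, Mdk and Cd200r1.

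The change from culture to tumor differed between the lines for Ptn and Cd200. The interaction of line and setting, which shares the effect of the table over both lines, was -3.40 for Ptn (standard error 0.63, edgeR adjusted p = 0.0010) and -1.80 for Cd200 (0.30, 3.9e-04) on the log2 scale. These were 2 of 8 genes called, both smaller in D2.1, where 12.8% of 15077 genes were called. The D2.1 to D2A1 gap of both was thus smaller in SCID-beige tumors than in culture, though still 40.7-fold for Ptn and 17.1-fold for Cd200. Sox9 (-0.93, 0.39, edgeR adjusted p = 0.14) and Id4 (-1.53, 1.03, 0.40) did not pass, nor did Sox10 (adjusted p = 0.11), whose size cannot be given because the D2.1 cultures had 0 counts, and Id4 passed without D2.1 SCID-beige tumor 3 (-3.00, adjusted p = 0.0014). The median over the 8 genes was -0.69, also with Sox10 at its bound, and -0.93 over the 7 others, beside -0.02 over all genes.

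**Figure D5:**
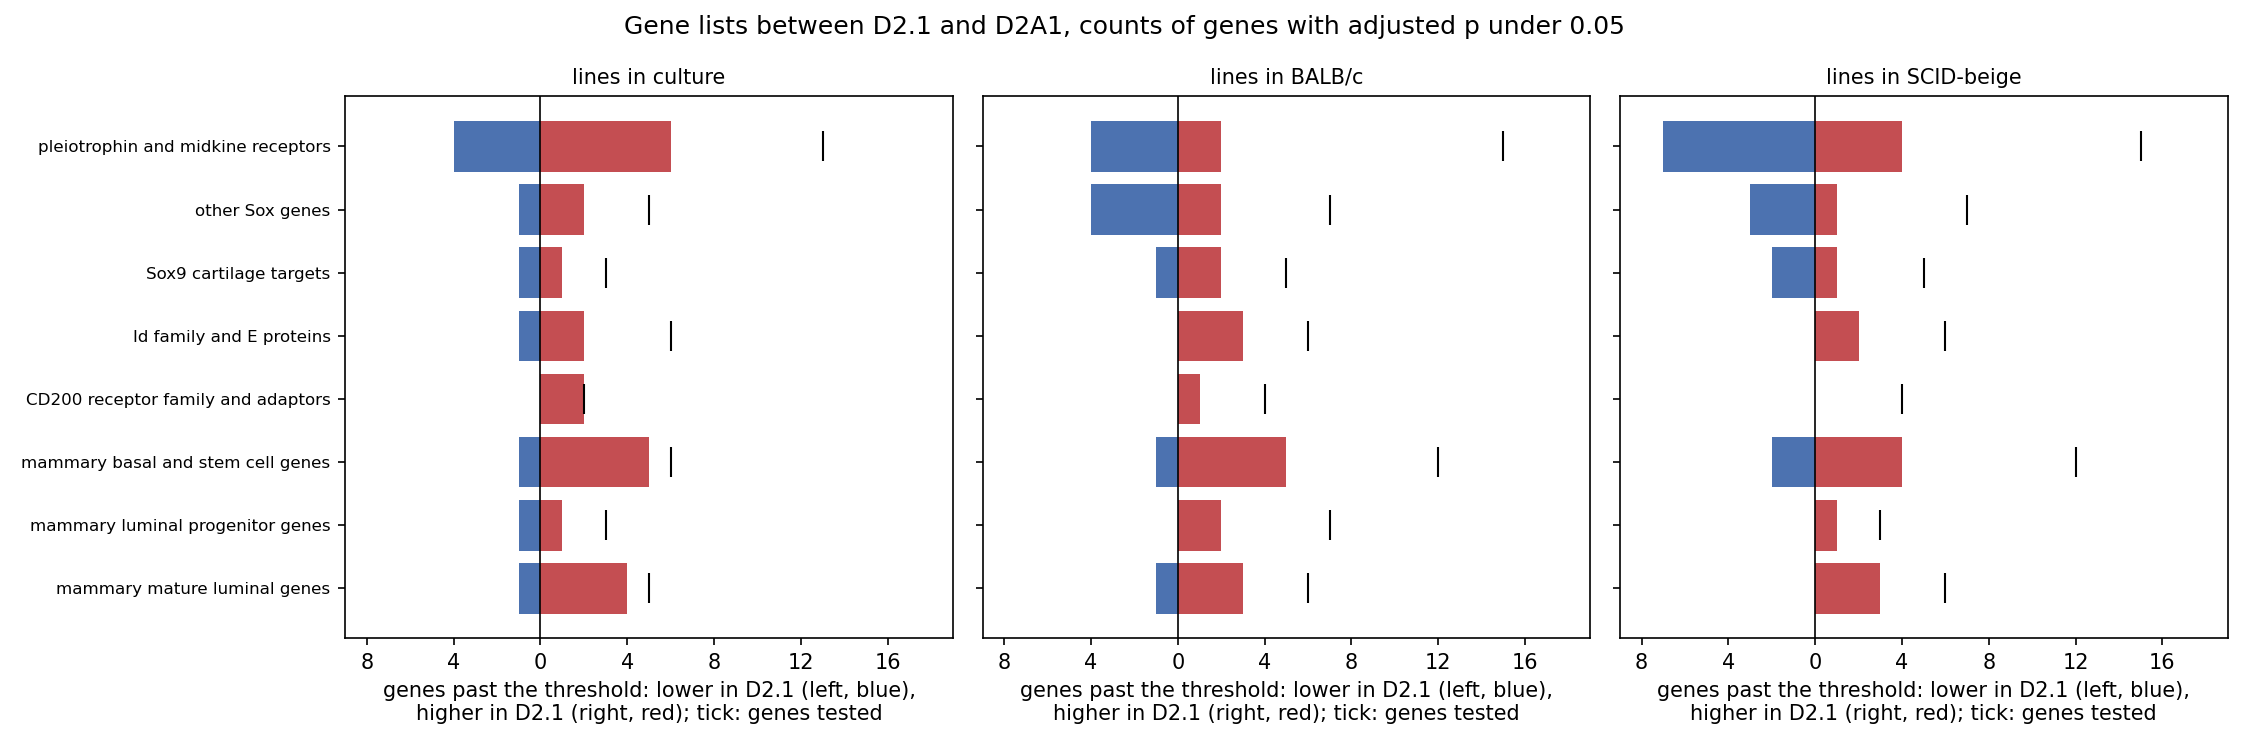
Genes of 8 related lists that were higher (right) or lower (left) in D2.1 than in D2A1 at an edgeR adjusted p under 0.05, in culture, BALB/c tumors and SCID-beige tumors, with a tick at the number tested. In culture 4 of 5 mature luminal and 5 of 6 basal genes tested are higher in D2.1, while the receptors of Ptn and Mdk are split, with 6 higher and 4 lower. Over all genes tested in culture, 24.2% were higher and 20.7% lower in D2.1.

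Beside the list counts below, 24.2%, 16.8% and 17.2% of all genes tested were higher in D2.1 in culture, BALB/c and SCID-beige. The shares lower in D2.1 were 20.7%, 15.8% and 14.8%, and the all-gene medians -0.02, -0.02 and 0.02. No list was tested against these shares. On the receptor side of Ptn and Mdk, the 18 listed genes were split between the lines. In culture 6 of 13 tested were higher in D2.1 and 4 lower, in BALB/c tumors 2 and 4 of 15, and in SCID-beige tumors 4 and 7 of 15, with list medians of 0.40, -0.22 and 0.12 on the log2 scale. The endocytic receptor Lrp1 was higher in D2.1 in all 3 (log2 fold changes 3.67, 0.92 and 0.81), at 786 ± 46.1 CPM in D2.1 culture and 61.1 ± 6.87 CPM in D2A1 culture (n = 3 each). Syndecan Sdc3 was higher in D2.1 tumors of both hosts (1.69 and 1.28). The kinase Alk was called lower in D2.1 in all 3 but was rare, with group means of at most 1.88 CPM. Ptprz1 was below the filter, with at most 21 counts in any library and 0 in all 3 D2A1 cultures. Of the Cd200 side, Cd200r2 had at most 1 count in any library and Cd200r3 at most 8, and Cd200r4, an activating relative of the receptor, was at 1.12 ± 0.587 and 2.65 ± 0.948 CPM in D2.1 and D2A1 BALB/c tumors (n = 4 each) and 3.04 ± 0.450 and 1.56 ± 0.683 CPM in SCID-beige tumors (n = 5 each). Neither difference passed (edgeR adjusted p = 0.084 and 0.067). In that list 2 of 2 tested genes were higher in D2.1 culture, among them the adaptor Dok1 (2.59), then 1 of 4 in BALB/c tumors and 0 of 4 in SCID-beige tumors.

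Among 11 other Sox genes, 2 of 5 tested were higher and 1 lower in D2.1 culture, 2 and 4 of 7 in BALB/c tumors, and 1 and 3 of 7 in SCID-beige tumors. Sox5, which acts with Sox9 in cartilage, was higher in D2.1 in all 3 (5.04, 4.50 and 3.61), and Sox12, of the same subgroup as Sox4, was lower in all 3 (-3.00, -1.91 and -2.14). The 11 cartilage targets of Sox9 were mostly too low to test, with 3, 5 and 5 tested, 1, 2 and 1 of them higher in D2.1 and 1, 1 and 2 lower. Those lower were Col11a2 in all 3 (-1.01, -1.57 and -2.16) and Col9a3 in SCID-beige tumors (-1.46). Comp was higher in BALB/c tumors (2.39), but not past the threshold without D2.1 BALB/c tumors 1 and 4 (1.75, edgeR adjusted p = 0.10). Col2a1, type II collagen, was higher in all 3 and stood out in level. It had 0 counts in every D2A1 tumor and averaged 54.5 ± 37.5 CPM in D2.1 BALB/c tumors and 84.4 ± 42.7 CPM in D2.1 SCID-beige tumors, at least 315-fold and 432-fold higher against a floor of 3 counts per library, while aggrecan (Acan) had at most 3 counts in any library. Erbb3, the neuregulin receptor and a known target of Sox10, was higher in D2.1 in all 3 (4.67, 5.81 and 7.34). It stood at 199.9 ± 38.6 CPM in D2.1 culture, where Sox10 had 0 counts, and a link between them was not tested. The other Sox10 targets listed, apart from Mbp, are not reported here, so Erbb3 does not stand for that list.

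The Id and E protein list had 2 higher and 1 lower of 6 in culture, 3 and 0 in BALB/c tumors, and 2 and 0 in SCID-beige tumors. Id3 was higher in D2.1 in all 3 (1.29, 1.97 and 1.43), and Id2 was lower in culture (-1.86) but higher in BALB/c tumors (0.61, edgeR adjusted p = 0.035). The latter call was lost without D2.1 BALB/c tumors 1 and 4 (0.62, adjusted p = 0.12), and with 1 library left out the adjusted p reached 0.085. Of 13 basal and stem cell genes, 5 of 6 were higher and 1 lower in culture, 5 and 1 of 12 in BALB/c tumors, and 4 and 2 of 12 in SCID-beige tumors. Keratin Krt14 (3.77, 5.06 and 5.92) and the transcription factor Bcl11b (3.84, 3.91 and 5.13) were higher in D2.1 in all 3, and Procr, a stem cell marker, was lower (-0.86, -2.19 and -2.11). Krt5 was higher in BALB/c tumors (2.90), but not without D2.1 BALB/c tumors 1 and 4 (0.25, edgeR adjusted p = 0.81). Of 7 luminal progenitor genes 1 of 3, 2 of 7 and 1 of 3 were higher and 1, 0 and 0 lower, and Aldh1a3, an aldehyde dehydrogenase of these cells, was higher in all 3 (5.34, 4.19 and 5.59). Ehf, the other one higher in BALB/c tumors (3.38), was not past the threshold without those 2 tumors (2.12, adjusted p = 0.15). Of 7 mature luminal genes 4 of 5, 3 of 6 and 3 of 6 were higher and 1, 1 and 0 lower. Gata3, the luminal transcription factor, was higher in D2.1 in all 3 (3.61, 4.05 and 3.996), and the estrogen receptor gene Esr1, at 0 counts in D2A1 culture, had a level at least 10.9-fold higher in cultured D2.1 cells and was higher in both tumor comparisons (1.98 and 1.497). The list medians in these last 3 lists were 3.37, 1.11 and 0.04 for basal genes, -0.01, 3.10 and 0.08 for luminal progenitor genes, and 2.42, 1.74 and 1.69 for mature luminal genes. The value of 3.10 was that of Elf5 (standard error 1.31, edgeR adjusted p = 0.095), which stood at 12.1 CPM in D2.1 BALB/c tumor 1 and at most 0.810 CPM in the other 3, and without tumors 1 and 4 that median was 0.32.

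Between hosts in D2.1, Mbp (log2 1.36, edgeR adjusted p = 0.023) and Ehf (3.88, 0.022), the 1 called of 6 luminal progenitor genes tested, were higher in BALB/c tumors. Without D2.1 BALB/c tumors 1 and 4 neither passed (0.99 with 0.48 and 2.63 with 0.51), in a comparison where 11 of all genes were then called in place of 133.

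As a description over the 24 libraries, which share cell line, host and table, the levels of Sox9, Ptn and Cd200 ran together, with Pearson r of log2 CPM of 0.91 for Sox9 and Ptn, 0.92 for Sox9 and Cd200 and 0.94 for Ptn and Cd200. Sox10 and Mdk had an r of 0.76 and Mdk and Cd200r1 of 0.75, while Sox4 reached at most 0.35 with any of the others. Among protein-coding genes, the 3 most like Sox9 were Fam167a, Foxs1 and Car12 (each 0.96), and the 3 most like Ptn were Fkbp10, A4galt and Itga7 (0.99, 0.99 and 0.98). Flot2, Nectin1 and Notch4 were most like Cd200 (0.98, 0.98 and 0.97). Cd200r1 was most like the leukocyte genes Plek, Cd84 and F13a1 (0.98 each), Mdk like Cpz, Rasl12 and Rnase6 (0.92, 0.91 and 0.91), and Sox10 like Wfdc18, Krt5 and Gucy1a1 (0.92, 0.91 and 0.91). Id4 (Slc47a1, Abcb1a and Hbegf, 0.83, 0.82 and 0.81) and Sox4 (Btbd7, Lamc1 and Pik3ca, 0.83, 0.79 and 0.78) had looser neighbors. With Spearman correlation, FPKM or the 18 tumors alone, 0 or 1 of the 3 neighbors were kept for each gene, except that Spearman correlation kept 2 for Sox4.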

How the data were processed

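Whole-transcriptome libraries of 6 cultured and 18 tumor samples were sequenced on an Illumina NovaSeq. The deposited count tables hold the number of reads the authors counted on each gene, without normalization. The authors' FPKM values equal count over gene length and library total, checked within 0.1% on 100% of genes. STAR and mm10 are listed in the submitters' processing notes, and the counting program, annotation and strand setting are not given in the sources used here. Symbols and coordinates were taken from GENCODE M21 (GRCm38), and identifiers without a match held 0.0969% (cells) and 0.0446% (tumors) of counts. Cell and tumor tables differ in genes listed and in gene lengths, which can shift any comparison across them.

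Levels are CPM on a TMM scale over all 24 libraries and the 34519 shared genes, and log2 CPM used a prior count of 2. Changes were tested with edgeR 4.0.16 in R 4.3.3 (limma 3.58.1), with TMM normalization, the default expression filter and robust quasi-likelihood fits of only the groups compared, at a Benjamini-Hochberg adjusted p under 0.05. The interactions used all 4 groups concerned. Genes below the filter were compared by exact 2-sided permutation of log2 CPM (Python 3.11.15, scipy 1.17.1). Count ratios have exact (Clopper-Pearson) 95% intervals, and intervals and the floor of 3 counts cover counting error only. Of 38 replicate pairs, none were copies (chi-square per degree of freedom 4.96 to 117). In simulated tables where 200 genes had a log2 fold change of 2, edgeR recovered 99.5% of 193 tested in culture and 89.8% of 197 for the line and setting interaction, among 12423 and 14446 genes. Of its calls, 5.42% and 4.32% were false there, and 9.91% in D2.1 tumors against culture. Those counts had the same dispersion for every gene and no link between same-numbered libraries, unlike the data, so error rates here may differ.

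Groups were taken from the sample labels. The genes, the 8 lists of related genes and the marker lists were chosen with earlier results of these data known. Named genes are the 8 members, from each list up to 4 genes a direction with the largest fold changes past the threshold, and for each member the 3 genes with the most similar levels. Ptprz1, Acan, Elf5 and the receptors Cd200r2, Cd200r3 and Cd200r4, outside that rule, were named after their values were seen. A list of Sox10 targets and one of a marker cell type are not reported here. Replicate numbers are shared between groups. Deviations of same-numbered libraries from their group means correlated at 0.184 to 0.491 in culture, 0.1 to 0.491 in BALB/c and 0.131 to 0.273 for D2A1 tumors against culture, so numbers were taken as pairs there, although no source names a shared batch. They were not in the other comparisons, where at least 1 number correlated below 0.1. The main tests were all fitted without pairs, and the numbers entered only in the replicate block, an alternative fit. Alternatives were DESeq2 1.42.0, its size factors, other count filters, a log2 fold change beyond 1, the replicate block, one fit of all tumors, each library left out and D2.1 BALB/c tumors 1 and 4 left out. Genes of equal length (within 1%) in both tables were added after seeing the data.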

Additional observations from a re-analysis of the deposited data

Results flagged for a closer look

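Id4 in D2.1 SCID-beige tumor 3 was at 38.3 CPM, where the other 4 tumors of the group held 2.40 to 4.52 CPM, a gap beyond what Dixon's criterion allows for 5 samples. It was the 1 such case among 32 combinations of gene and group, and chance alone marks about 1 in 20 groups.

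The change from culture to SCID-beige tumor differed between the lines for Cd200 by -1.80 and for Ptn by -3.40 on the log2 scale, D2.1 minus D2A1, by the edgeR interaction test (adjusted p = 3.9e-04 and 0.0010). The D2A1 cultures held 7 counts of Ptn in all, so the size of the Ptn value rests on few reads.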

How the results depend on the processing

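Sox9, Ptn and Cd200 kept their direction and their call between the lines in all 3 settings under every alternative run, each library left out included. Leaving out 1 library moved the number of the 8 genes called from 4 to 5 in culture, 3 to 4 in each host comparison of the lines, 0 to 1 between hosts in D2.1 and in D2A1, 3 to 5 for D2.1 tumors against culture, 5 to 7 for D2A1 tumors against culture and 2 to 3 for line by setting. Between hosts, DESeq2 called 1 gene in D2.1 and 2 in D2A1, and no filter and one fit of all tumors called 1 each in D2A1, against 0. Sox10 between the lines in SCID-beige tumors was 2.07 with no filter (edgeR adjusted p = 0.13). Directions of genes that did not pass the test turned over. With 1 library left out, log2 values ranged from -0.43 to 0.20 (Sox4, culture), -0.33 to 0.33 (Sox4), -0.44 to 0.082 (Id4) and -0.29 to 0.032 (Cd200r1) in BALB/c, -0.015 to 0.31 (Cd200r1, SCID-beige), -0.11 to 0.025 (Sox9) and -0.13 to 0.44 (Sox4) between hosts in D2.1, -0.069 to 0.30 (Ptn), -0.030 to 0.49 (Id4) and -0.23 to 0.16 (Cd200r1) between hosts in D2A1, -0.19 to 0.17 (Ptn, line by host), -1.70 to 0.043 (Id4, D2.1 tumors against culture), and -0.63 to 0.47 (Mdk) and -0.22 to 0.85 (Cd200r1) for line by setting. Ptn between hosts in D2.1 was -0.13 without D2.1 BALB/c tumors 1 and 4, and Ptn line by host was 0.043 with DESeq2 and 0.0428 with its size factors. Without turning over, Id4 ranged from -2.32 to -0.63 between hosts in D2.1 and from -2.61 to -0.88 for line by host, the value nearest 0 being that without D2.1 SCID-beige tumor 3. The cause was not tested.

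With the replicate block, Sox4 was -0.076 in culture and -0.058 in BALB/c, Sox9 0.033 between hosts in D2.1, Cd200r1 0.13 between hosts in D2A1, Ptn 0.015 for line by host and Mdk -0.013 for line by setting, each on the other side of 0 and none past the threshold. In SCID-beige the numbers were not taken as pairs, because number 4 correlated at -0.161. Numbers 1, 2, 3 and 5 correlated at 0.253, 0.256, 0.179 and 0.344. There the block gave Sox4 -0.50 (edgeR adjusted p = 0.026) and Id4 1.21 (0.20). Apart from these and Id4 in D2A1 tumors against culture, the block changed no call of the 8 genes. Where the numbers were taken as pairs, the block called 7539 genes of all tested in place of 5602 in culture, 7116 in place of 4868 in BALB/c and 9299 in place of 8054 for D2A1 tumors against culture. Where they were not, it called 14 genes between hosts in D2.1 in place of 133, and 0 in D2A1 in place of 170.

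Over all genes, a log2 fold change beyond 1 left 2786, 2939 and 2610 of 5602, 4868 and 4607 calls between the lines in culture, BALB/c and SCID-beige, and 4867 of 7498 and 5180 of 8054 in tumors against culture of D2.1 and D2A1. Between hosts in D2.1, DESeq2 called 461, no filter 275, one fit of all tumors 261, and 11 were left without tumors 1 and 4. In D2A1 DESeq2 called 569. Line by host had 105 calls with DESeq2, 6 with its size factors, 7 with no filter and 0 without tumors 1 and 4, against 3. Sox10, Mdk and Cd200r1 lie near the floor of 3 counts in the cultures, so differences there were not detectable at this depth.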
